A study of Mus musculus with 43 samples.

Results

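The metabolic CRISPR library held 39 genes that make, lengthen, desaturate, activate or release fatty acids, out of 2078 genes targeted in all. They were chosen by gene symbol, with earlier results of these data known. They comprise the acetyl-CoA carboxylases, fatty acid synthase and malonyl-CoA decarboxylase, the mitochondrial synthesis enzymes and the elongation enzymes other than the elongases. The desaturases, the acyl-CoA synthetases and the acyl-CoA thioesterases complete the set. With 5 sgRNAs per gene they accounted for 195 of the 10390 gene-targeting sgRNAs, and the library also carried 250 nontargeting sgRNAs. No filter on low values was applied, so all 39 genes were tested in every comparison.

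The cells were OT-I CD8+ T cells, whose receptor recognises ovalbumin, from mice that also carried Cas9 knocked into the Rosa26 locus. They were transduced with the lentiviral library, which marks transduced cells with CD90.1, and transferred into young adult Rosa26-Cas9 C57BL/6J mice bearing orthotopic KPC_OVA tumours, a pancreatic cancer line expressing ovalbumin. Every recipient thus expressed Cas9 and carried tumour, and from the day of transfer received either a PD-1 blocking antibody (anti-PD-1) or rat IgG. Cells kept back on the day of transfer form the T0 group (3 libraries). CD90.1+ cells were sorted 7 days later from primary tumour, lung, liver, peritoneal metastases, spleen, draining lymph nodes and nondraining lymph nodes, which gave 14 groups by organ and treatment. Of 43 samples, 41 had values, because the authors excluded 2 after quality control. The groups held 3 libraries each, except liver under anti-PD-1 with 1, liver under IgG with 2 and peritoneal metastases under IgG with 2. The animals outnumbered the libraries, so a library may combine several mice, and libraries of different organs may share mice.

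Cytosolic fatty acid synthesis starts with the carboxylation of acetyl-CoA to malonyl-CoA, which fatty acid synthase then uses to build palmitate. Elongases and their partner enzymes lengthen palmitate at the endoplasmic reticulum, and desaturases add double bonds. A separate pathway inside mitochondria builds short chains on an acyl carrier protein and supplies the precursor of lipoate, the cofactor of pyruvate dehydrogenase. Acyl-CoA synthetases activate free fatty acids for use, and thioesterases reverse that step.

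A level is given here as the mean log2(signal + 1) over the 5 sgRNAs of a gene minus the mean of the nontargeting sgRNAs of the same library, so 0 is the level of the controls. A change is the difference of such levels, and a negative change against T0 means that knockout cells became scarcer than control cells after transfer. Each error is a standard error from limma, and adjusted p-values (Benjamini-Hochberg over 2078 genes) were called at 0.05. The organ mean is the average of one replicate number and treatment over the 5 organs outside lymph nodes, which gave 3 values for T0, 3 for IgG and 3 for anti-PD-1. At the ends of this scale, Rpl9 (a ribosomal protein) and Polr1d (an RNA polymerase subunit) changed by -5.96 and -4.96 in the IgG organ mean. Pik3cd (the PI3K delta catalytic subunit) changed by 2.42.

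Library quality differed by organ. The lowest value of an sgRNA was its minimum over all libraries of one replicate number, counted where another library shared it. Of the 195 sgRNAs, 37.4 to 91.3% stood at that lowest value in the 12 lymph node samples. That share was 5.13 to 36.4% in the 6 from lung, 0 to 19% in the 20 from the remaining organs and 0% in T0. Single nontargeting sgRNAs also spread, with an SD over the 250 of 0.87 in the IgG organ mean and 0.833 under anti-PD-1, and the p-values cover the spread between libraries only, not that between sgRNAs. One library, peritoneal metastases under anti-PD-1 replicate 2, was used by its title although its tissue was labelled spleen. It enters the anti-PD-1 organ mean of replicate 2, an average of 4 libraries, for every gene. Without it the same number of genes, 7, was depleted under anti-PD-1. These were Scd1 at -2.04, Mecr at -1.92, Acaca at -1.65, Acsl4 at -1.58, Oxsm at -1.38, Mcat at -1.35 and Tecr at -1.26, all called.

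Averaged over organs, knockouts of the acetyl-CoA carboxylase Acaca, of the 3 mitochondrial synthesis genes and of the desaturase Scd1 were depleted under both treatments, whereas most synthetases and all 8 thioesterases had no called change. In the IgG organ mean 6 of the 39 genes were depleted (Acaca, Oxsm, Mcat, Scd1, Acsf3 and Mecr), against a background of 18.5% of all genes. In the anti-PD-1 organ mean 7 were depleted (Scd1, Mecr, Acaca, Acsl4, Oxsm, Tecr and Mcat), against 19.5% of all genes. The 6 and 7 correspond to 15.4% and 17.9% of the 39 genes, a share below that of the whole library in both. When single libraries were the unit of the fit in place of the averages, 2 of the 6 remained called under IgG (Acaca and Mcat) and 3 of the 7 under anti-PD-1 (Acaca, Mecr and Scd1). Without the lowest 10% of sgRNAs, Oxsm, Scd1 and Acsf3 lost their calls under IgG, and Oxsm and Acsl4 theirs under anti-PD-1. With the median of a gene's sgRNAs in place of the mean, 3 remained called under IgG (Acaca, Oxsm and Mcat). Under anti-PD-1 3 remained (Mecr, Tecr and Mcat), so Scd1 was called under neither treatment. Acsl5 was the single gene enriched in the IgG organ mean, where 0.626% of all genes were enriched. None of the 39 was enriched under anti-PD-1, where 0.866% of all genes were. In the anti-PD-1 organ mean, 557 of all genes and 12 of the 39 had an unadjusted p of at most 0.05. Of the 12, 3 were increases. The median change of the 39 genes was -0.16 under IgG and -0.02 under anti-PD-1, beside -0.18 and -0.20 over all genes.

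Counting only whether the organ mean values overlap with T0 put the 39 genes near the share of the whole library. All 3 IgG values lay below all 3 T0 values for 12 of the 39 genes (30.8%), against 29.4% of all genes. They lay above them for 3 (7.69%), against 7.46%. Under anti-PD-1 the counts were 12 below (30.8%), against 29.2%, and 3 above (7.69%), against 9.82%. Both treatments were set against the same 3 T0 libraries.

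**Figure D1:**
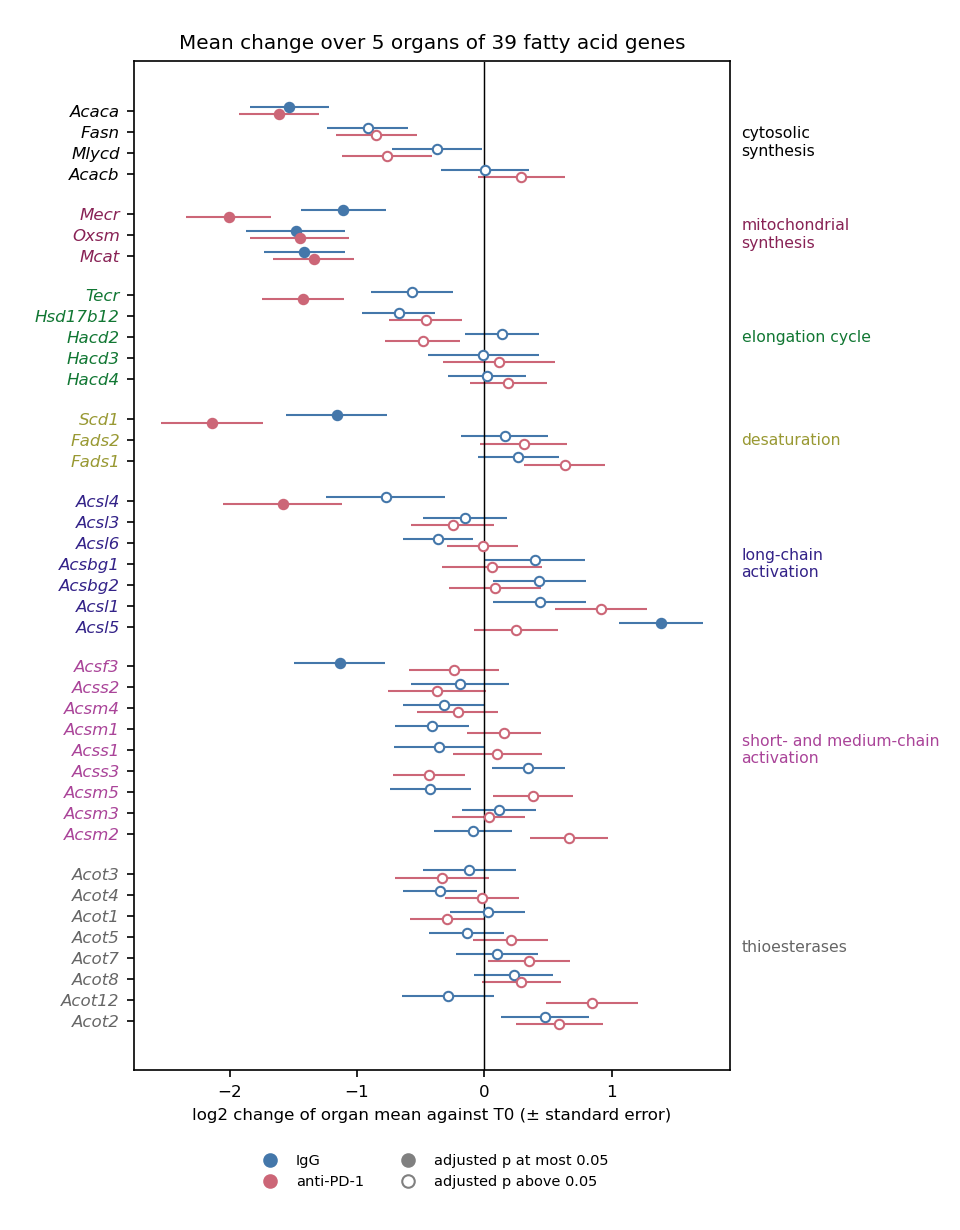
Organ mean change against T0 (horizontal axis, log2 scale) with its standard error for each of the 39 genes, grouped by role, under IgG (blue) and anti-PD-1 (red). Filled points have an adjusted p of at most 0.05. The 3 mitochondrial synthesis genes lie between -1.11 and -2.01 under both treatments, while the 8 thioesterases lie between -0.35 and 0.85.

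Of the 4 genes of cytosolic synthesis and malonyl-CoA turnover, Acaca was depleted under both treatments. Acaca encodes the cytosolic acetyl-CoA carboxylase that commits carbon to fatty acid synthesis. Its levels in T0 replicates 1, 2 and 3 were 0.39, 0.45 and 0.17. The IgG organ means were -1.29, -1.38 and -0.91, and the anti-PD-1 organ means were -0.96, -1.05 and -1.81. None overlapped with T0, and of the 26 single libraries outside lymph nodes 25 lay below the lowest T0 library. The change was -1.53 ± 0.31 under IgG (adjusted p = 0.000825) and -1.61 ± 0.31 under anti-PD-1 (adjusted p = 0.000472). All 5 sgRNAs were negative under both treatments, from -2.34 to -0.74 under IgG.

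Acaca was also the only one of the 39 genes depleted in primary tumour. Tumour levels under IgG were -1.40, -2.01 and -2.52, and those under anti-PD-1 were -1.81, -1.13 and -2.12, all below T0. The changes were -2.31 ± 0.65 (adjusted p = 0.0093) and -2.02 ± 0.65 (adjusted p = 0.0281). In primary tumour 14.3% of all genes were depleted under IgG and 14.4% under anti-PD-1. The tumour call under IgG was lost without its replicate 3 (change -2.04), and that under anti-PD-1 was lost without its replicate 1 (-1.96) or 3 (-1.81) or without any one T0 replicate (-2.11 to -1.97). Over 10 alternative settings the tumour call held in 6 under IgG and in 5 under anti-PD-1. Both were lost with all 41 libraries in 1 fit and with the median of a gene's sgRNAs. Both were also lost with the median of all sgRNAs as the centre and without the lowest 10% of sgRNAs.

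Fasn, which encodes fatty acid synthase itself, followed Acaca in direction but missed the threshold in both organ means. Its T0 levels were 0.02, -0.30 and -0.30. Under IgG the organ means were -0.55, -1.43 and -1.36, and the anti-PD-1 organ means were -1.31, -0.73 and -1.09, so none overlapped with T0. The change was -0.92 ± 0.32 under IgG (adjusted p = 0.0535) and -0.85 ± 0.32 under anti-PD-1 (adjusted p = 0.0745). By organ its change ran from -1.55 in lung under IgG to -0.10 in spleen under IgG, and none was called. Acacb, the carboxylase isoform at the mitochondrial surface, had changes of 0.00 and 0.29. Mlycd, which breaks malonyl-CoA down again, had changes of -0.38 and -0.76. Neither was called.

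All 3 genes of mitochondrial synthesis were depleted in the organ means of both treatments, although 4 of these 6 calls were lost with single libraries as the unit of the fit. Mcat loads malonyl groups onto the acyl carrier protein, Oxsm condenses them into the growing chain and Mecr carries out the last reduction of each cycle. The median change of the 3 was -1.41 under IgG and -1.45 under anti-PD-1.

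For Mcat, T0 levels were 0.33, 0.22 and 0.71. After transfer under IgG they were -1.12, -0.95 and -0.90, and the anti-PD-1 organ means were -0.33, -1.31 and -1.11. Every organ mean lay below T0, as did all 13 single IgG libraries and 12 of the 13 anti-PD-1 libraries, the exception being peritoneal metastases under anti-PD-1 replicate 1 at 0.83. The change was -1.41 ± 0.32 under IgG (adjusted p = 0.0021) and -1.34 ± 0.32 under anti-PD-1 (adjusted p = 0.00332), and all 5 sgRNAs were negative under both. Both calls held whichever of the 29 libraries was left out, but with single libraries as the unit the anti-PD-1 change was -1.29 and was not called (adjusted p = 0.0683).

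For Oxsm, T0 levels were more spread, at -0.02, 0.50 and 0.84. The IgG organ means were -1.56, -0.98 and -0.59, and the anti-PD-1 organ means were -0.41, -1.88 and -0.74. They did not overlap with T0, although 4 single libraries did. The change was -1.48 ± 0.39 under IgG (adjusted p = 0.00836) and -1.45 ± 0.39 under anti-PD-1 (adjusted p = 0.00936). Of its 5 sgRNAs 4 were negative, from -2.82 to -1.40 under IgG, and the other stood at 0.43. Both calls were lost without T0 replicate 3 (-1.28 and -1.25), with single libraries as the unit (adjusted p = 0.127 and 0.175) and without the lowest 10% of sgRNAs (adjusted p = 0.0639 and 0.0504).

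For Mecr, T0 levels were -0.07, 0.20 and 0.20. The IgG organ means were -0.41, -1.45 and -1.14, and the anti-PD-1 organ means were lower, at -1.68, -2.41 and -1.61. Both sets lay below T0, and the anti-PD-1 values lay below the IgG values without overlap. The change was -1.11 ± 0.34 under IgG (adjusted p = 0.0236) and -2.01 ± 0.34 under anti-PD-1 (adjusted p = 9.4e-05). All 5 sgRNAs were negative under both treatments. The IgG call was lost without T0 replicate 2 or 3, spleen under anti-PD-1 replicate 2, or any one of the IgG libraries lung replicate 3, peritoneal metastases replicate 2, primary tumour replicate 1 and spleen replicate 1, with changes from -1.11 to -0.91, and with single libraries as the unit (adjusted p = 0.308). The difference between treatments, -0.90 ± 0.34, did not pass the threshold (adjusted p = 0.281).

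Each of the mitochondrial genes had its largest decrease in lung. Mecr stood at -2.65, -4.69 and -3.86 in lung under anti-PD-1, a change of -3.84 ± 0.82 (adjusted p = 0.000425). In lung under IgG it stood at 0.95, 0.02 and -3.10, so 1 library was as low as those under anti-PD-1 and the others were near T0. Mcat stood at -1.31, -2.18 and -2.85 in lung under anti-PD-1, a change of -2.54 ± 0.60 (adjusted p = 0.00142). Oxsm was called in lung under IgG instead, at -1.98, -3.16 and -0.002, a change of -2.15 ± 0.74 (adjusted p = 0.0379). The Oxsm call was lost without its replicate 1 (-2.02) or 2 (-1.43) or without T0 replicate 2 (-2.12) or 3 (-1.95). These lung libraries had 5.13 to 36.4% of the sgRNAs of the 39 genes at the lowest value, and the part of that loss in the lung values was not tested.

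**Figure D2:**
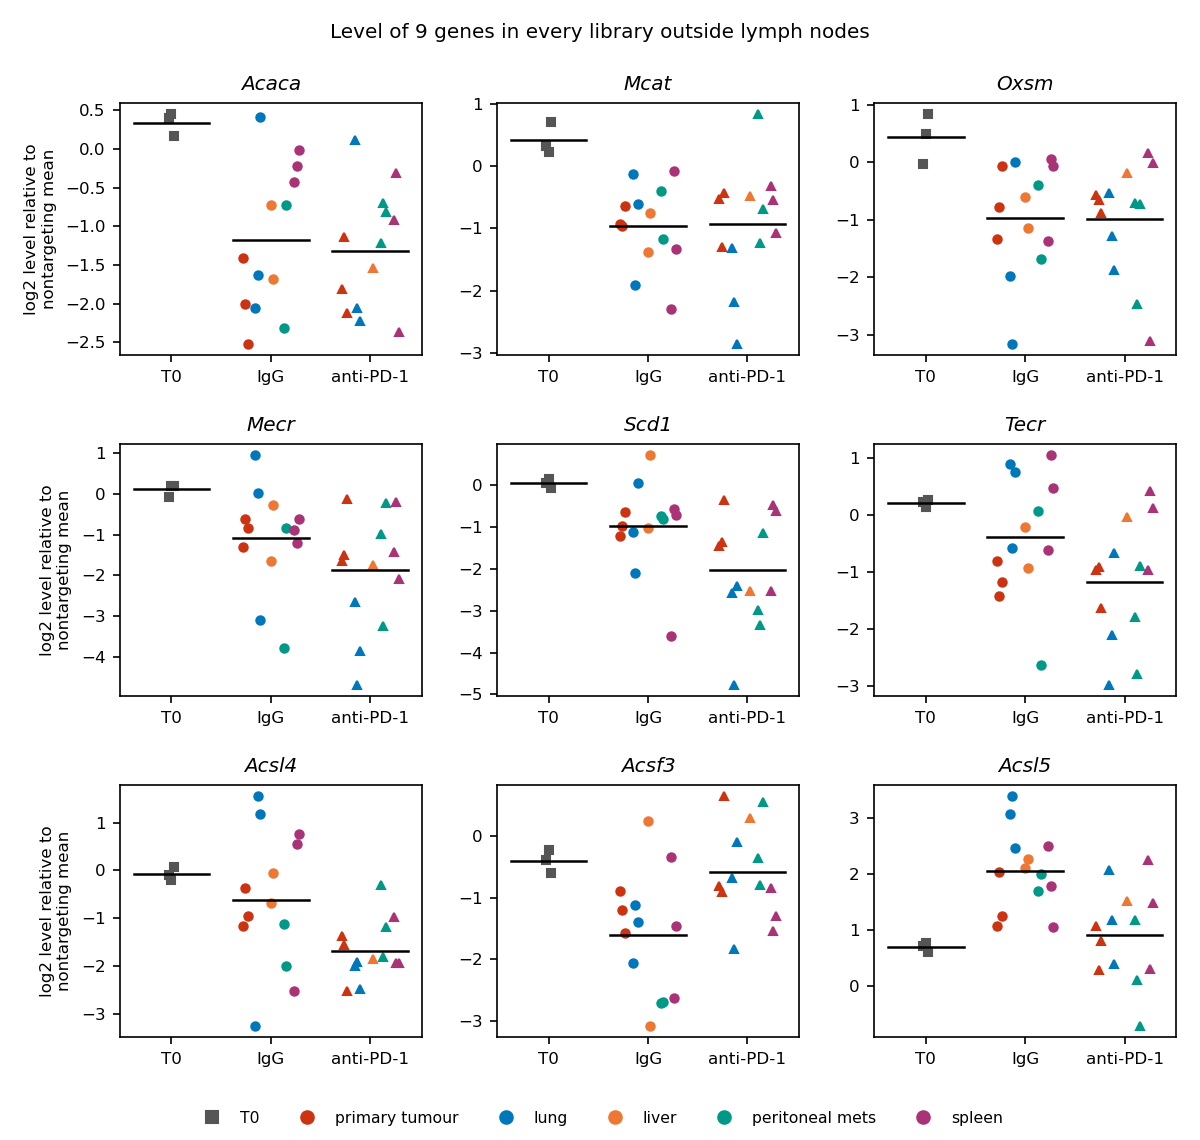
Level of 9 genes in each of the 29 libraries outside lymph nodes (vertical axes, log2 relative to the nontargeting mean, with a scale of its own in each panel), for T0 (squares), IgG (circles) and anti-PD-1 (triangles), coloured by organ. Lines are means over libraries. All 13 IgG libraries of Acsl5 lie above T0, and all 13 anti-PD-1 libraries of Mecr, Scd1 and Acsl4 lie below it.

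The neighbours of this mitochondrial pathway, which are not among the 39 genes, had larger decreases. Ndufab1, the mitochondrial acyl carrier protein that is also a complex I subunit, changed by -2.91 ± 0.46 under IgG and -2.32 ± 0.46 under anti-PD-1. Lias, lipoate synthase, changed by -4.42 ± 0.36 and -3.61 ± 0.36. Lipt1 and Lipt2 attach or move the lipoyl group. With them, 4 of 4 such genes in the library were depleted under both treatments, with a median change of -3.39 under IgG. Of all genes, 18.5% were depleted under IgG and 19.5% under anti-PD-1. These neighbours were listed with earlier results of these data known. Aasdhppt, which attaches the phosphopantetheine arm that carrier proteins need, changed by -4.73 ± 0.49 and -5.25 ± 0.49. The difference between these genes and the mitochondrial synthesis genes was not tested.

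On the side of acetyl-CoA supply the values were mixed. Acly, which makes cytosolic acetyl-CoA from citrate, was depleted under anti-PD-1 (-1.25 ± 0.41, adjusted p = 0.0344) and had -0.85 ± 0.41 under IgG (adjusted p = 0.207). Slc25a1, the citrate carrier of mitochondria, was enriched under IgG (0.94 ± 0.32, adjusted p = 0.0467) and had -0.03 ± 0.32 under anti-PD-1. With the median of the nontargeting sgRNAs as the centre, its IgG change was 0.45 and was not called (adjusted p = 0.316). In lung, Slc25a1 was enriched under IgG (2.13 ± 0.58, adjusted p = 0.00666). Its lung difference, anti-PD-1 minus IgG, was also called (-2.92 ± 0.58, adjusted p = 0.00583). Me1, an NADPH-producing malic enzyme, had changes of 0.04 and -0.41.

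Among the 5 elongation-cycle genes, Tecr was depleted under anti-PD-1 and was not called under IgG. Tecr encodes the reductase that completes each elongation cycle, after the reductase Hsd17b12 and the dehydratases of the Hacd family. Its T0 levels were 0.23, 0.15 and 0.26. The IgG organ means were -0.17, -0.21 and -0.70, and the anti-PD-1 organ means were -1.67, -1.34 and -0.62. Both sets lay below T0, but they overlapped with each other. The change was -1.42 ± 0.32 under anti-PD-1 (adjusted p = 0.00215) and -0.57 ± 0.32 under IgG (adjusted p = 0.308), and the difference between treatments was not called (-0.85 ± 0.32, adjusted p = 0.285).

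Tecr sgRNAs did not move alike. Under anti-PD-1 they ran from -4.24 to 0.26, with a median of -1.03, and 4 of 5 were negative. By organ, Tecr was depleted under anti-PD-1 in lung (-2.97, -2.10 and -0.66, change -2.12 ± 0.66, adjusted p = 0.0183) and in peritoneal metastases (-1.79, -2.78 and -0.89, change -2.03 ± 0.66, adjusted p = 0.0285). The lung call was lost without its replicate 1 (-1.59) or 2 (-2.03) or without T0 replicate 1 (-2.11) or 3 (-2.10). The peritoneal call was lost without replicate 1 (-2.05), or without replicate 2, the library with the spleen tissue label (-1.55, adjusted p = 0.243), and also without any one T0 replicate.

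The other elongation genes were not called. Hsd17b12 had -0.67 ± 0.29 under IgG and -0.46 under anti-PD-1, and Hacd2, Hacd3 and Hacd4 lay between -0.49 and 0.19. The elongases themselves, from Elovl1 to Elovl7, were not called in the organ means: 0 of 7 passed under IgG and 0 of 7 under anti-PD-1, with 1 and 2 at an unadjusted p of at most 0.05. Their changes ran from -0.78 to 0.41 under IgG and from -0.34 to 0.68 under anti-PD-1. With the nontargeting median as the centre, 2 of the 7 were depleted under IgG, Elovl2 (-1.27, adjusted p = 0.00983) and Elovl5 (-1.16, adjusted p = 0.0451). With that centre 593 of all 2078 genes were depleted under IgG. By organ, Elovl2 (-1.64 ± 0.55, adjusted p = 0.0312) and Elovl5 (-2.23 ± 0.62, adjusted p = 0.00782) were depleted in lung under IgG. Elovl7 was enriched in lung under anti-PD-1 (1.61 ± 0.55, adjusted p = 0.0334), and Elovl1 in the single liver library under anti-PD-1 (2.39 ± 0.79, adjusted p = 0.0495), a group of 1 with no spread of its own.

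Scd1 was the single desaturase depleted of 3. It encodes stearoyl-CoA desaturase, which makes monounsaturated from saturated fatty acids, whereas Fads1 and Fads2 act on polyunsaturated ones. Scd1 levels in T0 were 0.06, 0.16 and -0.07. Organ means under IgG were -1.98, -1.07 and -0.28, and those under anti-PD-1 were -2.38, -2.48 and -1.40. Neither set overlapped with T0, and they overlapped with each other. All 13 single libraries under anti-PD-1 and 11 of 13 under IgG lay below T0, and liver under IgG replicate 3 lay above it at 0.72.

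The change of Scd1 was -2.14 ± 0.40 under anti-PD-1 (adjusted p = 0.000303), the largest decrease among the 39 genes in either organ mean. It was -1.16 ± 0.40 under IgG (adjusted p = 0.0497), at the edge of the threshold, and that call remained after 11 of 29 single libraries were left out. The IgG call held in 5 of 10 alternative settings. With the median of its sgRNAs in place of the mean, neither organ mean was called (limma, adjusted p = 0.166 under anti-PD-1 and 0.116 under IgG). The difference between treatments was -0.98 ± 0.40 (adjusted p = 0.326). Among its sgRNAs 4 of 5 were negative under both treatments. The fifth stood apart at 2.36 under IgG and at 0.19 under anti-PD-1, while the lowest reached -3.06 and -3.71.

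By organ, Scd1 was depleted under anti-PD-1 in lung and in peritoneal metastases. In lung its levels were -2.57, -4.77 and -2.40, a change of -3.30 ± 0.76 (adjusted p = 0.000954). In peritoneal metastases they were -2.99, -3.34 and -1.14, a change of -2.54 ± 0.76 (adjusted p = 0.0145). The peritoneal call was lost without replicate 1 (-2.29) or without replicate 2, the library with the spleen tissue label (-2.11, adjusted p = 0.118), and also without T0 replicate 2 (-2.48). With the median of its sgRNAs, the changes were -3.74 in lung and -2.90 in peritoneal metastases. Neither was then called (limma, adjusted p = 0.206 and 0.601). In primary tumour the change was -0.99 under IgG and -1.09 under anti-PD-1, not called. Fads1 had 0.26 under IgG and 0.63 under anti-PD-1, and Fads2 had 0.16 and 0.31. The desaturase genes Fads1 and Fads2 are next to each other in the genome (RefSeq, GRCm38.p6).

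**Figure D3:**
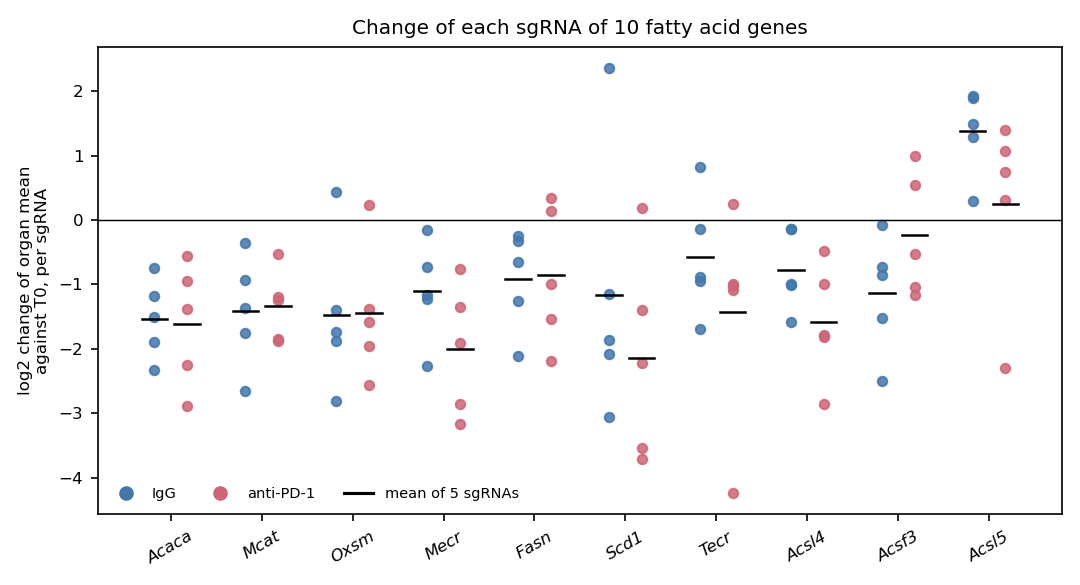
Change of each of the 5 sgRNAs (points) in the organ means of IgG (blue) and anti-PD-1 (red) against T0, on a log2 scale, for 10 genes, with the mean as a line. All sgRNAs of Acaca, Mcat, Mecr and Acsl4 lie below 0, and Scd1 has 1 sgRNA at 2.36 under IgG.

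Of the 7 long-chain synthetases, 1 was enriched under IgG and another depleted under anti-PD-1. Acsl5, found on mitochondria and the endoplasmic reticulum, was the enriched one. Its T0 levels were 0.72, 0.78 and 0.61. Its organ means were 2.22, 2.21 and 1.82 under IgG, and 1.65, 0.48 and 0.70 under anti-PD-1. The IgG values lay above T0 and above anti-PD-1 without overlap, and the anti-PD-1 values overlapped with T0. All 13 single IgG libraries lay above the highest T0 library, from 1.06 to 3.39, whereas under anti-PD-1 8 lay above and 5 below.

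The Acsl5 change under IgG was 1.38 ± 0.33 (adjusted p = 0.00361), which ranked 2073 from the lowest of 2078 genes. Under anti-PD-1 it was 0.24 ± 0.33 (adjusted p = 0.73). All 5 sgRNAs were positive under IgG, from 0.30 to 1.93. Under anti-PD-1 4 were positive and 1 stood at -2.30. The difference between treatments was -1.14 ± 0.33 (95% interval -1.83 to -0.44), with an unadjusted p of 0.00296 and an adjusted p of 0.205. In lung under IgG its levels were 3.08, 3.39 and 2.47, a change of 2.28 ± 0.58 (adjusted p = 0.00299). In lung under IgG 1.68% of all genes were enriched.

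The enrichment of Acsl5 depended on the centre of the scale. In lung under IgG its change was 1.10 with the nontargeting median as the centre (adjusted p = 0.153) and 0.35 without centring (adjusted p = 0.648), and 5 of 10 alternatives lost that call. In the organ means, with the median of the nontargeting sgRNAs as the centre, every change within a contrast moved down by the same amount. The median over all genes moved from -0.18 to -0.67 under IgG. There 11 of the 39 genes were depleted and none enriched, beside 593 depleted and 5 enriched of all 2078 genes. Acsl5 under IgG then changed by 0.89 (adjusted p = 0.0865), and under anti-PD-1 by -0.18. Without centring, the median over all genes was -1.17 under IgG, and Acsl5 changed by 0.39. Of the 39 genes 27 were depleted and none enriched, beside 1401 depleted and 2 enriched of all 2078 genes. Its rank among all genes in a contrast does not change with the centre.

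Acsl4, which prefers arachidonate and other polyunsaturated fatty acids, was depleted under anti-PD-1. Its T0 levels were -0.08, -0.20 and 0.07. The anti-PD-1 organ means were -1.16, -1.81 and -1.99, and the IgG organ means were -2.32, -0.01 and -0.21. The anti-PD-1 values lay below T0 in the organ means and in all 13 single libraries, while the IgG values overlapped with T0. The change was -1.58 ± 0.47 under anti-PD-1 (adjusted p = 0.0176) and -0.77 ± 0.47 under IgG (adjusted p = 0.354), and their difference was not called (adjusted p = 0.486). All 5 sgRNAs were negative under both treatments. The call under anti-PD-1 was lost without T0 replicate 3 (-1.51) or without primary tumour under IgG replicate 1 (-1.58).

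Acsl1 had the largest increase under anti-PD-1, which was not called. Its T0 levels were 0.86, 0.62 and 0.61. The anti-PD-1 organ means were 0.80, 2.47 and 1.56, and 1 of them overlapped with T0. The change was 0.91 ± 0.36 under anti-PD-1 (adjusted p = 0.0989) and 0.44 ± 0.36 under IgG. All 5 sgRNAs were positive under both treatments. Acsl3, Acsl6, Acsbg1 and Acsbg2 lay between -0.37 and 0.43 and were not called.

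Of the 9 short- and medium-chain synthetases, Acsf3 was depleted under IgG and was not called under anti-PD-1. Acsf3 makes malonyl-CoA inside mitochondria, the substrate of the step carried out by Mcat. Its T0 levels were -0.39, -0.23 and -0.60. The IgG organ means were -1.10, -1.48 and -2.04, all below T0, and the anti-PD-1 organ means were -0.67, -1.27 and 0.02, which lay on both sides of it. The change was -1.14 ± 0.35 under IgG (adjusted p = 0.0282) and -0.24 ± 0.35 under anti-PD-1 (adjusted p = 0.749). The difference between treatments was 0.90 ± 0.35 (adjusted p = 0.312). All 5 sgRNAs were negative under IgG and 3 under anti-PD-1.

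In peritoneal metastases under IgG, both libraries of Acsf3 were low, at -2.72 and -2.69, a change of -2.30 ± 0.75 (adjusted p = 0.0307). That call was lost without either of them (-2.29 and -2.31) or without any one T0 replicate (-2.40 to -2.21). The organ mean call was likewise lost without lung under IgG replicate 1 (-0.98), peritoneal metastases under IgG replicate 2 (-1.03), spleen under IgG replicate 2 (-1.04) or any one T0 replicate (-1.23 to -1.05).

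The other synthetases of this group were not called under either treatment. The acetyl-CoA synthetases Acss1 of mitochondria and Acss2 of cytosol and nucleus had changes of -0.36 and -0.19 under IgG and of 0.10 and -0.37 under anti-PD-1, and Acss3, which can activate propionate, had 0.34 and -0.44. The medium-chain genes Acsm1 to Acsm5 lay between -0.42 and 0.11 under IgG and between -0.21 and 0.66 under anti-PD-1. Acsm2 had the third largest increase under anti-PD-1, 0.66 ± 0.31 (adjusted p = 0.175). One of its sgRNAs stood at 2.73, and the median of the 5 was 0.04. Acsm5, Acsm2, Acsm1 and Acsm4 lie side by side in the genome, so an edit in 1 of them is close to the others.

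None of the 8 thioesterases was called in either organ mean. At an unadjusted p of at most 0.05 there were 0 under IgG and 1 under anti-PD-1. Acot12, a cytosolic acetyl-CoA hydrolase, had 0.85 ± 0.36 under anti-PD-1 (adjusted p = 0.125) and -0.29 ± 0.36 under IgG. Its anti-PD-1 organ means were 1.77, 1.69 and 0.74, beside 0.57, 0.39 and 0.70 in T0 and -0.41, 0.76 and 0.45 under IgG. The anti-PD-1 values lay above T0, the lowest of them only just, and the difference between treatments was 1.13 ± 0.36 (unadjusted p = 0.00569, adjusted p = 0.245).

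Acot2, the long-chain thioesterase of mitochondria, had 0.48 ± 0.34 under IgG and 0.59 ± 0.34 under anti-PD-1, neither called. The cytosolic Acot1 and Acot7 and the peroxisomal Acot3, Acot4, Acot5 and Acot8 lay between -0.35 and 0.35. Acot2, Acot1, Acot4, Acot3 and Acot5 form a row of neighbouring genes with close sequence likeness, and whether their sgRNAs cut more than 1 of them could not be read from sgRNA names.

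**Figure D4:**
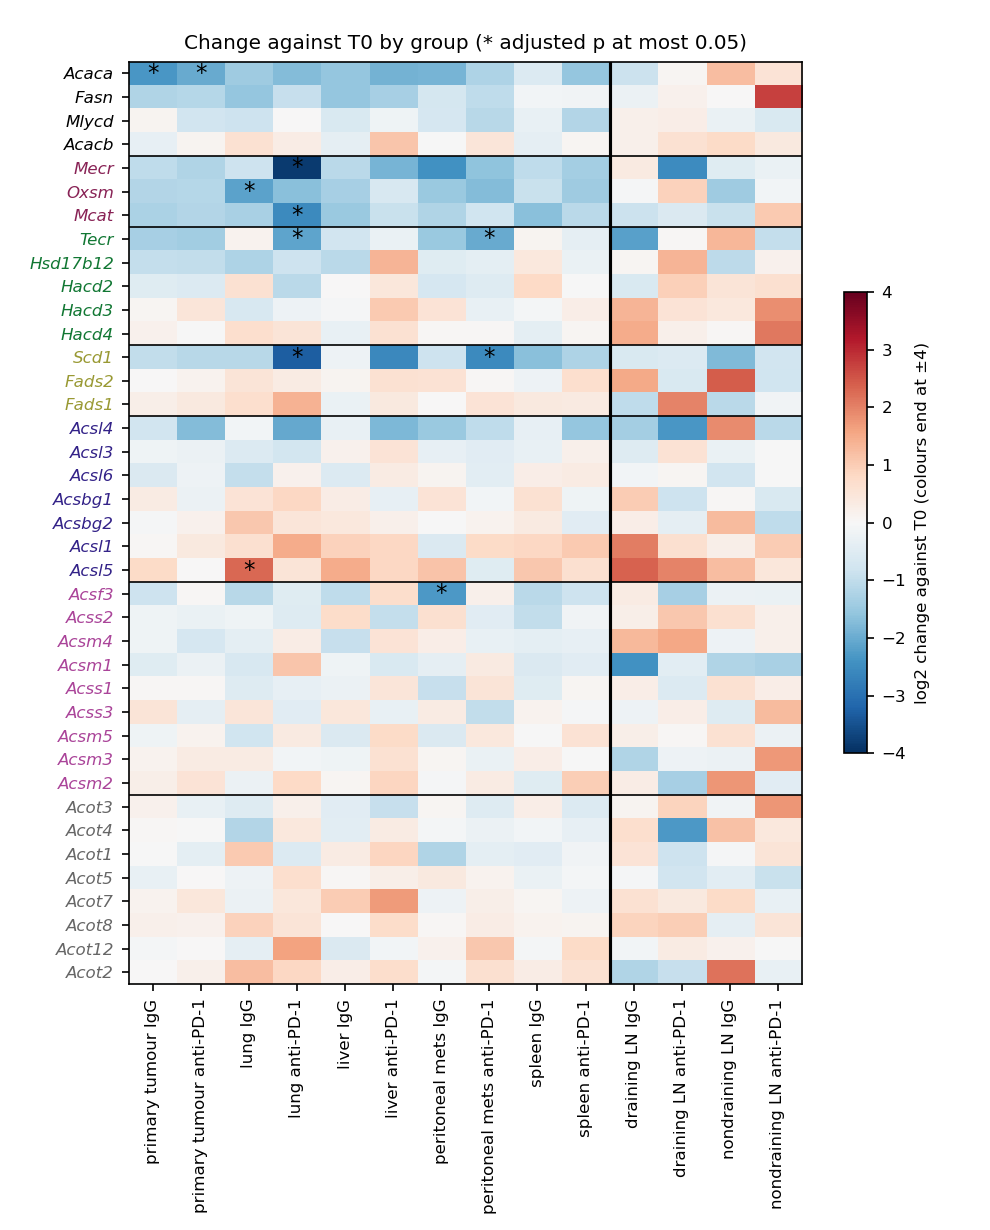
Change against T0 (colour, log2 scale ending at ±4) of the 39 genes (rows, in the order of the plot of organ means) in the 14 groups (columns), with asterisks at an adjusted p of at most 0.05. The asterisks fall in tumour, lung and peritoneal metastases, and the 4 lymph node columns to the right of the thick line hold none.

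Single groups gave few calls. Summed over the 10 groups outside lymph nodes there were 10 depletions and 1 enrichment among the 39 genes. Besides Acaca in tumour, these were Oxsm in lung under IgG (16.2% of all genes depleted there), Mcat, Mecr, Scd1 and Tecr in lung under anti-PD-1 (17.2%), Acsf3 in peritoneal metastases under IgG (13.7%) and Scd1 and Tecr in peritoneal metastases under anti-PD-1 (15.3%). None of the 39 was depleted in liver under IgG (13.1% of all genes), liver under anti-PD-1 (9.58%), spleen under IgG (13.6%) or spleen under anti-PD-1 (14%). At an unadjusted p of at most 0.05 there were 371, 359 and 411 of all genes in liver under IgG, spleen under IgG and spleen under anti-PD-1. Of the 39 there were 4, 2 and 1, of which 3, 2 and 1 were decreases. In each group the share of the 39 genes depleted was below that of all genes.

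The organs were not shown to differ. A moderated F-test over the 5 organs, each the mean of both treatments, called 9 of 2078 genes (0.433%) and none of the 39. At an unadjusted p of at most 0.05 there were 162 of all genes and 2 of the 39. These 2 were Hsd17b12 (unadjusted p = 0.00871) and Tecr (unadjusted p = 0.0212). For Mecr the unadjusted p was 0.196. Its change in lung was -3.84 under anti-PD-1, the lowest of the 39, and -0.82 under IgG. The test averaged the 2 and did not address anti-PD-1 alone.

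Nor was the treatment shown to change the organ mean of any of these genes. Anti-PD-1 against IgG called 3 of 2078 genes (0.144%) and none of the 39. At an unadjusted p of at most 0.05 there were 281 of all genes and 10 of the 39. Within organs, Mecr and Tecr were lower in lung under anti-PD-1 than under IgG, where 2.36% of all genes were lower. The lung difference of Mecr was -3.02 ± 0.82 (adjusted p = 0.034) and that of Tecr -2.27 ± 0.66 (adjusted p = 0.0475). Tecr stood at 0.91, -0.57 and 0.75 in lung under IgG, all above its anti-PD-1 libraries, the highest of which stood at -0.66. For Mecr the groups overlapped through the IgG library at -3.10.

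Over 8 alternative settings the Mecr difference kept its call in 2 and the Tecr difference in 1, and with 1 of 29 libraries left out they kept it in 25 and 11. No gene was called between treatments in primary tumour (0%), peritoneal metastases (0%) or spleen (0%). At an unadjusted p of at most 0.05 there were 14, 107 and 161 of all genes in these organs, and 0, 3 and 1 of the 39. The liver comparison set 1 anti-PD-1 library against 2 IgG libraries. The lone library was assumed to vary like the other groups, so the lack of calls in liver says little.

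In lymph nodes nothing was called for any gene. The share called was 0% in draining lymph nodes under IgG, 0% there under anti-PD-1, 0% in nondraining lymph nodes under IgG and 0% there under anti-PD-1 by limma. At an unadjusted p of at most 0.05 there were 212, 234, 146 and 126 of all genes, and 2, 2, 1 and 1 of the 39. Acsl5 was among them in draining lymph nodes under IgG, at 2.06, 4.56 and 2.58, a change of 2.36 ± 1.09 (adjusted p = 0.441). Under anti-PD-1, Acsl4 and Mecr were among them in draining nodes, with -2.33 ± 0.94 and -2.51 ± 1.05. In replicate 3 of that group both stood at -3.82, the same level as Rpl9, Lias and Lipt1 in that library. The standard errors of these 3 changes were 0.94 to 1.09, and 37.4 to 91.3% of the sgRNAs of the 39 genes were at the lowest value in these libraries. The part of that loss in these changes and in the lack of calls was not tested.

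The remaining listed genes around fatty acid use were not called in either organ mean with the nontargeting mean as the centre. Of the 5 carnitine shuttle genes, which carry long-chain acyl groups into mitochondria for oxidation, 0 passed under IgG and 0 under anti-PD-1, with 0 and 1 at an unadjusted p of at most 0.05 and changes from -0.48 to 0.79. Of the 5 fatty acid transport proteins in the library, Slc27a1 to Slc27a5, 0 passed under either treatment, with 1 and 0 at an unadjusted p of at most 0.05 and changes from -0.76 to 0.41. With the nontargeting median as the centre, Slc27a2 was depleted under IgG (-1.25, adjusted p = 0.0241), as were 593 of all 2078 genes. Cyb5r3, which feeds electrons to desaturases, had -0.28 under IgG and -0.19 under anti-PD-1.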

How the data were processed

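Pooled sgRNA libraries were sequenced from T0 cells and from CD90.1+ OT-I cells sorted out of 7 organs. Per the authors' methods, sgRNAs were counted with MAGeCK-VISPR, scaled to the 250 nontargeting sgRNAs and adjusted between organs with ComBat. The deposited signal values are these normalised counts per sgRNA, and they are neither whole reads nor a record of depth. Sums per library ran from 1788300 to 4228882, which limits no interval here because the read depth is unknown.

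Each value was taken as log2(signal + 1), a gene's level was the mean of its 5 sgRNAs, and the nontargeting mean of the library was subtracted. Changes were fitted with limma 3.58.1 in R 4.3.3 (lmFit, eBayes) for T0 and the 10 groups outside lymph nodes (29 libraries), for T0 and the 4 lymph node groups (15 libraries), and for the organ means. Each organ mean averages 3 to 5 libraries, since some organs lack a number. Benjamini-Hochberg adjustment covered 2078 genes, with a threshold of 0.05. Because adjustment between organs was made before deposit, differences between organs may be reduced. P-values measure the spread between these libraries, which may in part be technical.

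Groups followed the labels, and the 2 samples that the authors excluded were not analysed here. All 39 symbols matched the RefSeq gene table (GRCm38.p6), which was used for gene order only. The genes and lists were chosen with earlier results of these data known. Full statistics were given for genes past the threshold in an organ mean or in at least 2 groups outside lymph nodes, and for the 3 largest increases per treatment, while other members and the listed pathway genes were given by their organ mean changes. Fasn was given in full because of its role. The alternatives changed the centring, pseudocount (10), summary over sgRNAs, filter on low values, libraries fitted, weights and replicate block, and left out each library in turn. The scripts were tested on simulated data, and figures were drawn with matplotlib 3.10.9 (Python 3.11.15).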

Additional observations from a re-analysis of the deposited data

Results flagged for a closer look

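Mecr and Tecr differed between treatments in lung by the test of the difference itself. The lung change under anti-PD-1 minus that under IgG was -3.02 ± 0.82 for Mecr (limma, adjusted p = 0.034) and -2.27 ± 0.66 for Tecr (limma, adjusted p = 0.0475). All 3 anti-PD-1 libraries of Tecr lay below the 3 IgG libraries, whereas 1 IgG library of Mecr lay among those under anti-PD-1. The share of sgRNAs of the 39 genes at the lowest value was 36.4%, 24.1% and 5.13% in lung under IgG and 8.72%, 23.6% and 7.18% under anti-PD-1, and its part in these differences was not tested.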

How the results depend on the processing

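Leaving single libraries out apart, of 306 recomputed values for 31 results on single genes 225 kept their direction and side of the threshold, 75 lost the threshold, 4 gained it and 2 reversed, both for Acsl5 in the anti-PD-1 organ mean (-0.69 with values as deposited, -0.18 with the nontargeting median). In the IgG organ mean the 6 depleted genes became 27 as deposited, 11 with the nontargeting median, 3 with the median sgRNA, 3 without the lowest 10% of sgRNAs, 2 with libraries as the unit, and 2 to 7 with 1 library left out (3 without T0 replicate 2, 2 without T0 replicate 3). The 1 enriched gene became 0 as deposited, with the nontargeting median and with the median sgRNA. In the anti-PD-1 organ mean the 7 depleted became 18 as deposited, 3 with libraries as the unit, 3 with the median sgRNA, and 5 to 8 with 1 library left out. Over the 10 groups the 10 depletions became 69 as deposited, 30 with the nontargeting median, 47 with library weights, 43 with only the groups compared, 16 with a pseudocount of 10, 4 with all 41 libraries, 4 without the lowest 10% of sgRNAs, 3 with the median sgRNA, and 5 to 14 with 1 library left out (6, 5 and 5 without T0 replicates 1, 2 and 3). The 1 enrichment there became 20 with only the groups compared, 6 with library weights, 0 with all 41 libraries, as deposited, with the median of all sgRNAs, with the nontargeting median and with the median sgRNA, and 1 to 3 with 1 library left out. The count of calls between treatments within organs, which was 2, became 0 with all 41 libraries and with the median sgRNA. It became 1 as deposited, with a pseudocount of 10, with the nontargeting median and without the lowest 10% of sgRNAs, and 1 to 4 with 1 library left out. These counts do not follow Mecr and Tecr in lung, and a call can be of another gene. The lung differences of Mecr and Tecr were both lost with all 41 libraries, with the median sgRNA and as deposited. Both were also lost with the median of all sgRNAs, with the nontargeting median and without the lowest 10% of sgRNAs. With a pseudocount of 10 only that of Tecr was lost. The test between organs had called none of the 39 genes. It called 5 of them as deposited, 1 with the nontargeting median and 1 with the median of all sgRNAs. Summed over the lymph node groups, the 39 genes gave 154 calls as deposited. The cause of these shifts was not tested. In the IgG organ mean, 385 of all 2078 genes were depleted and 13 enriched. These became 593 and 5 with the nontargeting median and 1401 and 2 as deposited, so the centre moved the whole library there. Counts over all genes under the alternatives are not given for the 10 groups, the lymph nodes or the test between organs. The counts there thus cannot be set against a share of the whole library.

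With the replicate number as a block the counts were 6 and 7 depleted genes in the organ means, 1 enriched, 11 depletions over the 10 groups and 2 lung differences. Deviations of same-numbered libraries of different organ groups correlated above 0.1 in 37 of 93 pairs (median r 0.0308, highest 0.269), against 4 of 184 pairs with different numbers (median r -0.0119, highest 0.124), a hint from the data that some libraries of one number are alike. Since not every pair passed 0.1, and none of the 3 pairs of IgG and anti-PD-1 organ means did, the numbers were not taken to pair the samples. Leaving out lung, chosen after seeing the data, gave 5 and 8 depleted genes and kept Acsl5 enriched under IgG.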
